A study of Rattus norvegicus with 15 samples.

Results

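The 10 genes described here belong to the YAP and TEAD pathway: Yap1, Wwtr1, Tead1, Tead2, Tead3, Tead4, Vgll3, Ankrd1, Amotl2 and Lats2. They were chosen by symbol from the 11574 genes of the count table, each matched 1 row, and each was counted in every library. H9c2 is a myoblast line from embryonic rat heart that is grown in 10% serum and differentiates when serum is lowered. The 15 cultures fell into 5 groups of 3, and the study compared culture time and all-trans retinoic acid (RA), the form of vitamin A that binds the nuclear receptors RAR. T0 was harvested 24 h after seeding without RA. T7-RA and T14-RA were kept in 1% serum without RA until day 7 or day 14, and T7+RA and T14+RA received 1 µM RA daily over the same days. All sample titles read H9c2, whereas the cell line field of the labels is H9c2 only for T0 and carries a different, counting-up number for each later culture. The titles were followed here. The RA was dissolved in DMSO, and the sources used here name no DMSO for the cultures without RA, so RA and its solvent cannot be told apart. Days in culture and days in low serum cannot be told apart either.

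YAP (Yap1) and TAZ (Wwtr1) are transcriptional co-activators that bind no DNA themselves and act through the TEAD factors, which recognise the sequence GGAATG, known in muscle genes as the M-CAT element. The Hippo kinases, among them LATS2, phosphorylate YAP and TAZ and keep them out of the nucleus, while spread cells and stiff substrates favour their nuclear form. The pathway is known for heart growth, for keeping myoblasts proliferating and for feedback, since several of its target genes encode its own inhibitors. RNA levels, which are all that was measured here, do not show where the YAP protein is or how it is phosphorylated.

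The TEAD motif was sought in RefSeq promoter windows of the GRCr8 build, which run from 250 bases before to 50 bases after a gene's start. Windows were found for 5 of the 10 genes (Yap1, Wwtr1, Tead3, Amotl2 and Vgll3). GGAATG or its reverse complement CATTCC stood in the windows of 3 of them, against 4749 of all 33469 windows, or 15% of the 27457 genes with a window, and no overlap with another motif was examined. Those 3 stretches are shown because they place the motif next to genes whose levels are described below, and the windows of Ccn1 and Ccn2, the textbook YAP targets, are shown for comparison. Of 14 listed YAP targets with a window 4 held the motif (28.6%), namely Ccn1, Ccn2, Ptpn14 and Nuak2, and the others, among them Crim1, Axl, Gadd45a, Tgfb2 and Myof, did not. Each line gives 30 bases, 5′ to 3′ on the gene's strand, with the motif in capitals.
Yap1: agggagtctgcaGGAATGtaacgacgcgca
Amotl2: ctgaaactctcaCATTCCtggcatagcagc
Vgll3: cccgcctccccaCATTCCggctatactgcc
Ccn1: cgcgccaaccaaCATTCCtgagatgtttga
Ccn2: ggaaggtggggaGGAATGcgaGGAATGtcc
The Yap1 stretch lies at chr8:13451536-13451565 on the minus strand, with the motif at -116 from the start. The Amotl2 stretch lies at chr8:112182538-112182567 on the plus strand, with the motif at -76, and the Vgll3 stretch lies at chr11:17089517-17089546 on the plus strand, with the motif at -63 in 1 of its 2 windows. The Ccn1 motif was at -113 (chr2:237225785-237225814, minus strand). Ccn2 held the motif at -166, -101 and -92, and the last 2 lie in the stretch shown (chr1:22624698-22624727, minus strand). Neither the window of Wwtr1 nor that of Tead3 held these letters. A match is a description of sequence and does not show that a TEAD factor binds there.

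Counts per library ranged from 508397 to 1030820, and the 10 genes were counted between 568 times (Wwtr1) and 29831 times (Ankrd1) over the 15 libraries, with a lowest single count of 20. Levels are given as CPM, counts relative to the library total, after TMM scaling, as mean ± SD of 3 libraries. The T0 libraries differed most among themselves, with a chi-square per gene of 2.06 to 3.09 between pairs, against 1.07 to 2.04 in the other groups. Of 8 skeletal muscle markers, which include genes of myoblasts and of myotubes, 7 were in the table, and their summed level was 272 ± 30.2 CPM at T0. Of 6 cardiomyocyte markers only Gata4 had a row in the table, which holds genes of more than 20 counts. The others of this short list, Nkx2-5, Myh6, Tnni3, Ryr2 and Nppa, had none. A missing row at this depth does not show that a transcript was absent, and the study measured RyR2 by qPCR. Cacna1c, which the study used as a cardiac marker, had a row, and the study reports Troponin T2 as rising with culture time. No marker of endothelial cells (of 3) or macrophages (of 3) had a row.

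**Figure D1:**
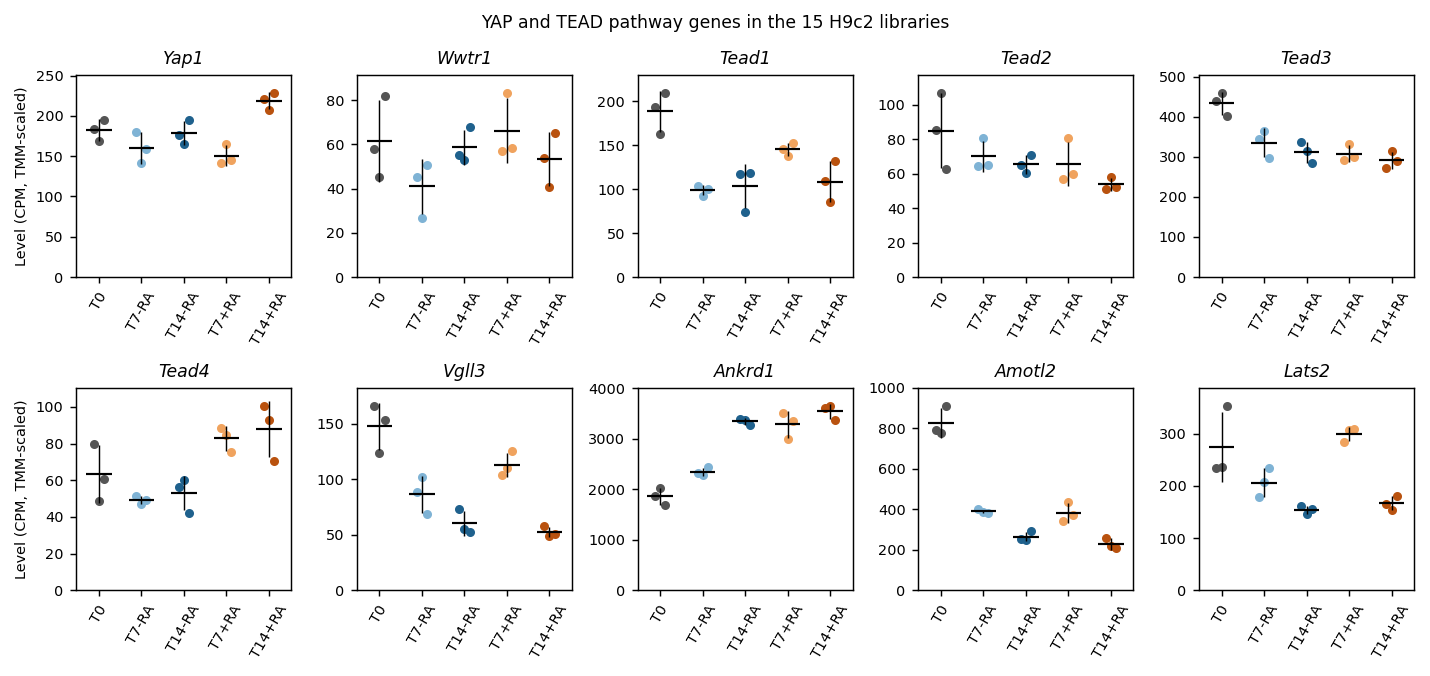
Level of the 10 genes in each of the 15 libraries (y axis, CPM after TMM scaling, linear and starting at 0) by group (x axis). Points are libraries, horizontal lines are means and vertical lines are SD over 3 libraries. Amotl2 and Vgll3 were lower in all T14 libraries than at T0, Ankrd1 was higher, and Tead4 was higher with RA than without it on both days.

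By day 14 of the culture 5 of the 10 genes fell and 1 rose. An additive model with terms for T7, T14 and RA was fitted to all genes with edgeR, and a gene was called at an adjusted p under 0.001. For the T14 term 6 of the 10 genes were called, against 17.3% of all genes: Tead1, Tead3, Amotl2, Lats2 and Vgll3 fell (8.85% of all genes were called lower) and Ankrd1 rose (8.47% were called higher). For the T7 term 3 were called, against 8.73% of all genes, with Tead1 and Amotl2 lower (4.44% of all genes) and Ankrd1 higher (4.29%). Without T0 replicate 1 the T7 count was 1. For the RA term 1 gene was called, Tead4, against 6.39% of all genes, 3.33% being higher. The median log2 change of the 10 genes was -0.46 for T14, -0.35 for T7 and 0.21 for RA, against 0.05, 0.02 and -0.01 over all genes. At least 1 of the 3 terms was called for 7 of the 10 genes and for 21.2% of all genes. Yap1, Wwtr1 and Tead2 were called in none. Scaling by library size only moved the median of all genes by over 0.1, to 0.127 for T7 and 0.151 for T14, and turned the split of higher against lower calls at T14 from 980 and 1024 into 1221 and 844. For T7 the split went from 496 and 514 to 648 and 358, while the sign of each called change in the 10 genes stayed as given.

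Marker lists also differed between the groups. The summed level of the 7 skeletal muscle markers ranged from 239 to 298 CPM at T0, from 2756 to 3320 for T7-RA and from 10830 to 11383 for T14-RA, and with RA from 1492 to 1819 at T7 and from 4778 to 5549 at T14. The 6 called higher at T14 were the contractile and metabolic genes Myh3, Tnnt3, Acta1, Ckm and Des and the differentiation factor Myog, while the myoblast factor Myod1 was not called (T14 term -0.88, adjusted p = 0.00689). The 8 proliferation markers summed to 1979 to 2174 CPM at T0, 700.3 to 774 for T14-RA and 499.8 to 639.9 for T14+RA. The 4 smooth muscle markers summed to between 15231 and 16810 CPM at T0, between 3334 and 3443 in T14-RA and between 3985 and 4790.2 in T14+RA, the RA libraries lying above the others of that day without overlap. Of the 4, Acta2, Cnn1 and Tagln were called lower at T14 and Myh11 was not called (T14 term 0.32, adjusted p = 0.622), and none was called for RA. The 3 fibroblast markers in the table, of 5, summed to 24632 to 37564 CPM at T0 and 20405 to 20620 in T14-RA. Almost all of this sum was Col1a1 (239165 counts over the 15 libraries, against 394 for Dcn and 2357 for Thy1), which was called lower at T14, whereas Dcn was called higher and Thy1 was not called. For RA 6 genes of these lists were called: Myh3, Tnnt3 and Acta1 of the skeletal muscle list were lower (-1.33, -1.16 and -0.86), Mcm2 of the proliferation list was lower (-0.59), and in the fibroblast list Dcn was higher (1.08) and Thy1 lower (-0.49). In bulk RNA, fewer cells of a type and less RNA per cell cannot be told apart, and the part of these groups in the changes below was not tested.

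**Figure D2:**
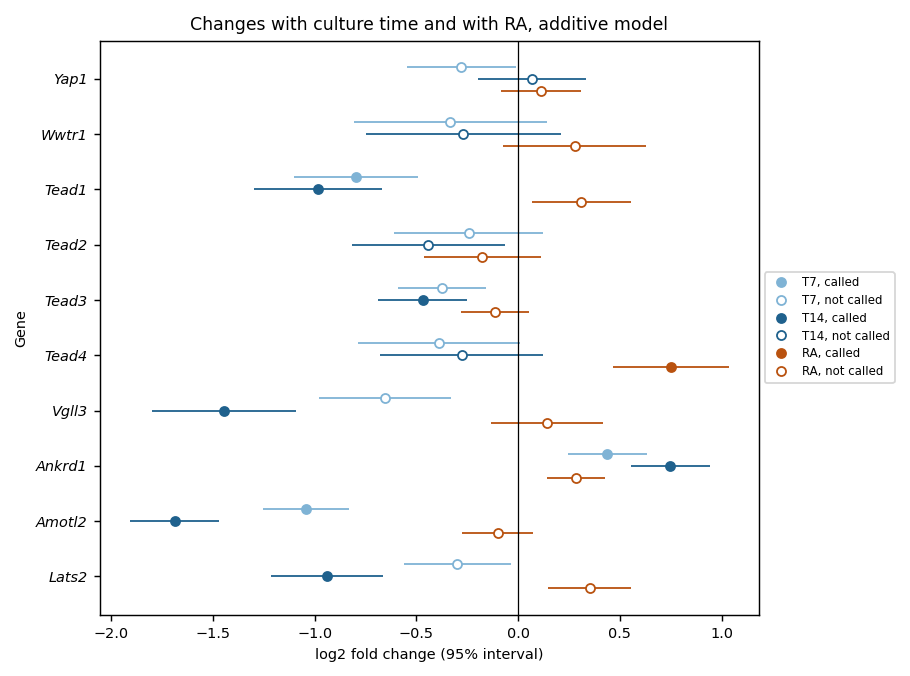
Log2 fold change (x axis) of each gene (y axis) for the T7, T14 and RA terms of the additive model, with 95% intervals from the fit of 15 libraries. Filled points are called at an adjusted p under 0.001, which was the case for 3 genes at T7, 6 at T14 and 1 with RA.

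Neither co-activator gene was called in any comparison. Yap1 stood at 183, 169 and 195 CPM in the T0 libraries, 180.1, 141 and 158 for T7-RA and 177, 165 and 195 for T14-RA. With RA it stood at 141, 165 and 146 CPM at T7 and 221, 207 and 228 at T14. The 3 T14+RA libraries were thus the highest of all 15, while each of the other 4 groups overlapped its neighbour in the order of means (T0, T14-RA, T7-RA and T7+RA). Between T7+RA and T14+RA the change of Yap1 was 0.53 ± 0.13 (log2, SE), with an adjusted p of 0.00211 that missed the threshold, and the T14 term was 0.07 ± 0.13. Leaving out T0 replicate 2 brought the change from T7+RA to T14+RA past the threshold (adjusted p = 0.000654 for Yap1, second week with RA).

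Wwtr1, which encodes TAZ, was the least counted of the 10. It measured 61.6 ± 18.6 CPM at T0, 41.0 ± 12.5 for T7-RA, 58.7 ± 7.89 for T14-RA, 66.2 ± 14.8 for T7+RA and 53.4 ± 12.2 for T14+RA, and each group overlapped its neighbour in the order of means. The RA change was estimated highest at day 7, 0.70 ± 0.23 (95% interval 0.24 to 1.17, adjusted p = 0.0461). Per kilobase of the deposited gene length, Yap1 stood above Wwtr1 in all groups, at 124 ± 8.89 against 37.4 ± 11.3 CPM per kb at T0.

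Among the 4 TEAD factors, Tead1 and Tead3 fell with culture time and Tead4 rose with RA. Tead1, the family member best known from heart and skeletal muscle, stood at 193, 163 and 209.6 CPM at T0 and at 104, 92.7 and 100.2 in T7-RA. In T14-RA it stood at 118, 74.4 and 119 CPM, for T7+RA at 145, 138 and 153, and for T14+RA at 109, 84.9 and 132. All T0 libraries were above all others, T7+RA came second and did not overlap the remaining groups, which overlapped each other. The T7 term was -0.80 ± 0.15 (adjusted p = 5.81e-05) and the T14 term -0.98 ± 0.16 (adjusted p = 5.92e-07), so that Tead1 dropped by 49.4% at T14. Without T0 replicate 1 the T7 call was lost (adjusted p = 0.00121). The RA term was 0.31 ± 0.12 and missed the threshold (adjusted p = 0.0789). For each day apart, the RA change of Tead1 was 0.55 ± 0.16 at day 7 (adjusted p = 0.0166) and 0.04 ± 0.17 at day 14 (adjusted p = 0.94). Neither was called.

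Tead3 stood at 440.1, 459.7 and 402 CPM at T0 and between 272 and 366 CPM in the 12 later libraries, none of which reached the T0 range. Its T14 term was -0.47 ± 0.11 (adjusted p = 0.000431), so that Tead3 dropped by 27.7%, and the T7 term of -0.38 ± 0.11 missed the threshold (adjusted p = 0.00708). The Tead3 call at T14 was a narrow one. It was lost without T0 replicate 1, T0 replicate 2, T14-RA replicate 2 or T14-RA replicate 3 (adjusted p up to 0.00462) and with scaling by library size only (adjusted p = 0.00621). Tead2, known from early development, measured 85.1 ± 22.03 CPM at T0 and 53.9 ± 3.71 in T14+RA, the lowest group. Its T14 term was -0.44 ± 0.19 (adjusted p = 0.0595).

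Tead4, a TEAD factor known from trophectoderm and from muscle regeneration, was the 1 gene of the 10 called for RA. It stood at 51.3, 47.0 and 49.4 CPM for T7-RA and at 88.4, 84.6 and 75.4 for T7+RA. At day 14 it stood at 56.5, 60.2 and 42.3 CPM without RA and at 100.3, 92.7 and 70.7 with RA. On both days all RA libraries were above all libraries without RA, whereas the T0 libraries (80.0, 48.8 and 60.8 CPM) overlapped both. The RA term was 0.75 ± 0.14 (95% interval 0.47 to 1.03, adjusted p = 3.72e-05), an increase of 68.3%. With any 1 library left out the RA term lay between 0.70 and 0.81 and stayed called (adjusted p at most 0.000529). The change was 0.75 ± 0.20 at day 7 (adjusted p = 0.00779) and 0.75 ± 0.20 at day 14 (adjusted p = 0.00494), so neither day alone reached the threshold. The T7 and T14 terms, -0.39 ± 0.20 and -0.28 ± 0.20, were not called.

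Divided by the deposited gene length, the order of the TEAD factors differs from that of the counts, because Tead3 and Tead4 have lengths of 5874 and 5253 bases and Tead1 and Tead2 of 1607 and 2135 bases. Tead1 was the highest per kilobase at T0, at 117 ± 14.6 CPM per kb, followed by Tead3 (73.9 ± 4.95), Tead2 (39.9 ± 10.3) and Tead4 (12.03 ± 3.00). In T7-RA Tead1 (61.5 ± 3.51 CPM per kb) and Tead3 (57.1 ± 6.05) did not differ beyond their SD. The sum of the 4 factors was 243 ± 6.24 CPM per kb at T0, 161 ± 7.201 for T7-RA, 158 ± 16.6 for T14-RA, 189.5 ± 6.35 for T7+RA and 159 ± 9.50 for T14+RA. The share of Tead4 in this sum was 4.93% ± 1.104 at T0, 5.84% ± 0.41 for T7-RA, 6.47% ± 1.65 for T14-RA, 8.33% ± 0.78 for T7+RA and 10.6% ± 2.31 for T14+RA. How the deposited lengths were made is not stated, so these comparisons between genes rest on them.

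**Figure D3:**
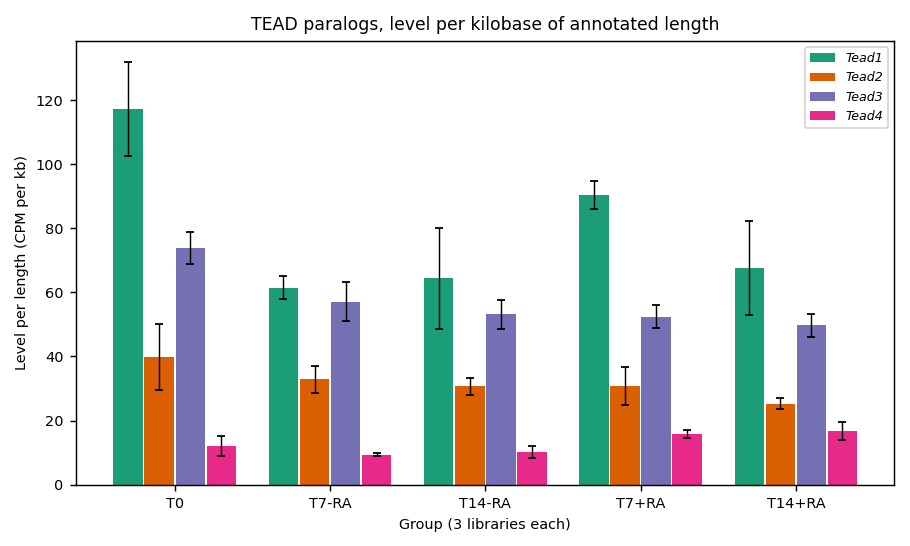
Level of the 4 TEAD factors in CPM per kilobase of deposited gene length (y axis, starting at 0) in the 5 groups (x axis), as means with SD over 3 libraries. Tead1 was at 117 CPM per kb at T0 and at 61.5 in T7-RA, and Tead4 was the lowest of the 4 in all groups.

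Vgll3 encodes a vestigial-like cofactor that binds TEAD factors in place of YAP and is known from myoblast differentiation. It stood at 166, 124 and 153 CPM at T0, 88.3, 102 and 68.3 for T7-RA, 73.3, 54.9 and 52.5 for T14-RA, 104, 110.1 and 125 for T7+RA and 57.9, 48.7 and 50.8 for T14+RA. No T14 library reached the T0 range, and the 2 T14 groups overlapped. The T14 term was -1.45 ± 0.18 (adjusted p = 5.77e-10), so that Vgll3 dropped by 63.3%. Vgll3 fell in the first week without RA by 0.78 ± 0.17 on the log2 scale (adjusted p = 0.000228) and in the second week with RA by 1.08 ± 0.19 (adjusted p = 9.57e-06), and in the second week without RA its change of -0.49 ± 0.19 was not called (adjusted p = 0.105). The first-week call was lost without T0 replicate 1, T7-RA replicate 1 or T7-RA replicate 3 (adjusted p up to 0.00818) and with DESeq2, limma-trend or scaling by library size only (adjusted p up to 0.00189). The RA term was 0.14 ± 0.14 (adjusted p = 0.591).

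Ankrd1 and Amotl2 are both direct YAP targets in many cells, and here they moved in opposite directions. Ankrd1 encodes a cardiac ankyrin repeat protein of the sarcomere and nucleus that is induced by stretch. It stood at 1873, 2030 and 1687 CPM at T0, 2326, 2279 and 2437 for T7-RA and 3396, 3381 and 3272 for T14-RA. With RA it stood at 3515, 2994 and 3363 CPM at T7 and at 3622, 3648 and 3372 at T14. The groups T14+RA, T14-RA and T7+RA overlapped as the highest, and T7-RA and T0 lay below them without overlap. Per kilobase Ankrd1 was the highest of the 10 genes in all groups, at 1053 ± 96.9 CPM per kb at T0 and 2004 ± 86.1 in T14+RA. The T14 term was 0.75 ± 0.10 (adjusted p = 6.25e-09), an increase of 67.9%, and the T7 term 0.44 ± 0.10 (adjusted p = 0.000558). The T7 call of Ankrd1 was lost without T0 replicate 1, T0 replicate 3, T7+RA replicate 1, T7+RA replicate 3 or T14+RA replicate 1 (adjusted p up to 0.00799) and with limma-trend (adjusted p = 0.0014). Its RA term was 0.28 ± 0.07 (adjusted p = 0.00307) and missed the threshold, which it passed with limma-voom, without T14+RA replicate 3 and, in a fit added after seeing the data, without the T0 group (adjusted p down to 0.000565).

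Amotl2 encodes a member of the angiomotin family, which holds YAP at cell junctions and is itself a YAP target. It stood at 793, 777 and 909.7 CPM at T0, 399.6, 386 and 383 for T7-RA, 255, 248 and 291 for T14-RA, 342, 436 and 370.2 for T7+RA and 260.4, 217 and 208 for T14+RA. Each step in time separated the groups without overlap, and the groups with and without RA overlapped on both days. The T7 term was -1.04 ± 0.11 (adjusted p = 8.56e-12) and the T14 term -1.69 ± 0.11 (adjusted p = 5.09e-20), so Amotl2 dropped by 51.5% and then by 69.0% against T0. At T14 it had the lowest p of the 10 genes and ranked at place 50 of the 11574 genes. Its RA term was -0.10 ± 0.09 (95% interval -0.27 to 0.07, adjusted p = 0.531).

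Lats2 encodes the kinase that phosphorylates YAP and TAZ and is also induced by YAP as negative feedback. It stood at 235, 236 and 352 CPM at T0, 178, 207 and 234 for T7-RA, 161, 145 and 156 for T14-RA, 284, 306 and 309 for T7+RA and 166, 154 and 181 for T14+RA. T7+RA and T0 overlapped as the highest groups, and the 2 T14 groups overlapped as the lowest, with T7-RA reaching into T14+RA. The T14 term was -0.94 ± 0.14 (adjusted p = 9.49e-08), so that Lats2 dropped by 47.8%, and the T7 term of -0.30 ± 0.13 was not called (adjusted p = 0.0968). In the second week with RA Lats2 fell by 0.84 ± 0.13 (adjusted p = 1.18e-06), and in the second week without RA the change was -0.41 ± 0.14 (adjusted p = 0.0567).

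The additive model assumes the same RA change on both days, so the RA change was also fitted for each day apart, with 1 mean per group. At day 7 the RA and the untreated libraries did not overlap for 6 of the 10 genes, Wwtr1, Tead1, Tead4, Ankrd1, Lats2 and Vgll3, all higher with RA. Over all genes 24.4% did not overlap on that day, 11.8% being higher with RA. The median change of the 10 genes was 0.43 at day 7, against -0.02 over all genes. By the test, 1 of the 10 was called at day 7, against 3.17% of all genes, 1.87% being higher. This was Ankrd1, at 0.49 ± 0.08 (adjusted p = 1.34e-05), an increase of 40.2%, and the call was lost without T7+RA replicate 1 (adjusted p = 0.00127). Lats2 came next, at 0.54 ± 0.13 (adjusted p = 0.00183). It crossed the threshold in the fit with the replicate number as a block and without T0 replicate 2, T0 replicate 3, T7-RA replicate 3 or T14+RA replicate 3, where the count of called genes became 2.

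At day 14 none of the 10 genes was called for RA by edgeR, DESeq2, limma-voom or limma-trend, against 4.81% of all genes, and 2 had an unadjusted p under 0.05 with edgeR, against 21.6% of all genes. Yap1 and Tead4 were higher and Tead2 was lower with RA without overlap of the libraries, while 27.2% of all genes did not overlap on that day. The median change of the 10 genes was -0.03, against -0.0036 over all genes. For Ankrd1 the change was 0.08 ± 0.08 (95% interval -0.08 to 0.25), and for Lats2 it was 0.11 ± 0.14 (95% interval -0.18 to 0.40).

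The difference between the 2 days was tested directly, at an adjusted p under 0.05, which 0.743% of all genes passed. None of the 10 genes passed it with edgeR, although 6 had an unadjusted p under 0.05, against 8.35% of all genes. Ankrd1 came closest, with a difference of -0.40 ± 0.12 (adjusted p = 0.108). It passed with DESeq2, limma-voom, the replicate block and without T0 replicate 2, and did not with limma-trend (adjusted p between 0.0121 and 0.172 over the alternatives other than leaving out a library). Wwtr1 had a difference of -0.84 ± 0.33 (adjusted p = 0.364), Vgll3 of -0.58 ± 0.27 (adjusted p = 0.541), Tead1 of -0.51 ± 0.23 (adjusted p = 0.526) and Lats2 of -0.44 ± 0.19 (adjusted p = 0.505). Yap1 had one of 0.38 ± 0.19 in the other direction (adjusted p = 0.581).

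**Figure D4:**
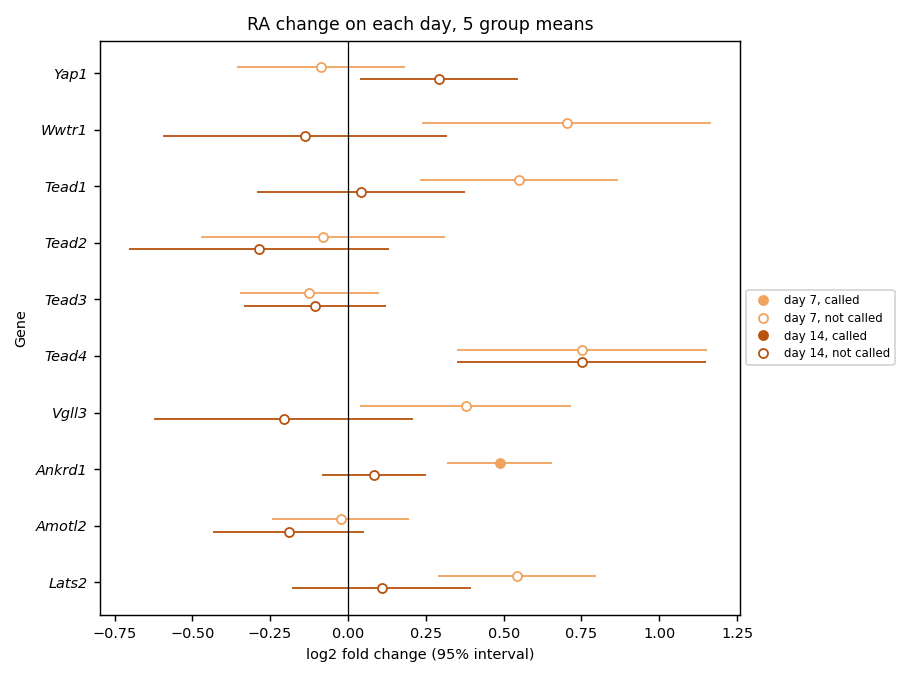
Log2 fold change with RA (x axis) of each gene (y axis) at day 7 and at day 14, with 95% intervals from the fit with 1 mean per group. Ankrd1 at day 7 was the 1 change called at an adjusted p under 0.001, and Tead4 had the same estimate of 0.75 on both days.

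The change within each week was also tested. In the first week without RA 3 of the 10 genes were called, all lower (8.78% of all genes were called, 4.54% lower): Amotl2 at -1.08 ± 0.11 (adjusted p = 7.83e-13), Tead1 at -0.93 ± 0.16 (adjusted p = 3.67e-06) and Vgll3 as given above. Ankrd1 was higher by 0.33 without overlap of the libraries but missed the threshold (adjusted p = 0.00246), which it passed with library size only, limma-voom, the replicate block and without T0 replicate 2 (adjusted p down to 6.3e-05). In the second week without RA 2 were called, against 2.95% of all genes, 1.87% being higher and 1.09% lower. Ankrd1 rose by 0.51 ± 0.08 (adjusted p = 6.13e-06) and Amotl2 fell by 0.56 ± 0.12 (adjusted p = 0.000319). The Amotl2 call of that week was lost without any 1 of the T7-RA libraries, T14-RA replicate 1 or T14-RA replicate 2 (adjusted p up to 0.0086), and with DESeq2 or limma-trend (adjusted p up to 0.00142). In the second week with RA 3 were called, Lats2, Vgll3 and Amotl2, all lower, against 4.67% of all genes called and 2.26% called lower. Amotl2 fell by 0.73 ± 0.12 in that week (adjusted p = 2.1e-06), and Ankrd1 changed by 0.11 ± 0.08 (adjusted p = 0.495). The weekly comparisons share the day 7 libraries with those of RA at day 7.

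The rest of the pathway was described with lists drawn up from general knowledge, with earlier results of these data known. Of 19 other YAP target genes 16 were in the table (Igfbp3, Foxf2 and Nt5e were not). At T14 11 of them fell and 1 rose, against 8.85% of all genes called lower and 8.47% called higher, with a median of -1.03 against 0.05 over all genes. At T7 7 fell (4.44% of all genes) and 1 rose (4.29%). With RA 8 of the 16 rose, against 3.33% of all genes, and the other 8 were not called, with a median of 0.48 against -0.01. By day, 6 of the 16 were called higher and none lower at day 7, against 3.17% of all genes called. At day 14, 5 were called higher and 1, Ptpn14, lower, against 4.81%. At an adjusted p of 0.05 the RA term called 8 of the 16 higher and 2 lower, against 14.7% of all genes called. Ccn1 and Ccn2, secreted matricellular proteins and the most used YAP readouts, both fell at T14, with terms of -2.92 ± 0.12 and -1.84 ± 0.11. Both were higher with RA, by 0.58 ± 0.10 for Ccn1 (adjusted p = 2.41e-06) and 0.58 ± 0.09 for Ccn2 (adjusted p = 3.17e-07).

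Ccn1 went from 1014 ± 21.7 CPM at T0 to 135 ± 12.04 for T14-RA and 197 ± 19.2 for T14+RA. Crim1, a transmembrane protein that binds BMPs, fell by 1.89 ± 0.11 at T14 and rose by 1.16 ± 0.09 with RA (adjusted p = 5.03e-17). Gadd45a, a stress response gene, was the 1 target that rose with time, from 24.9 ± 7.85 CPM at T0 to 187 ± 7.45 for T14-RA and 537 ± 60.6 for T14+RA. Nuak2, a kinase of the AMPK family, fell by 1.80 ± 0.17 at T14 and rose by 0.90 ± 0.13 with RA (adjusted p = 1.08e-07). Tgfb2, a TGF-beta ligand, fell by 0.64 ± 0.12 at T14 (adjusted p = 1.14e-05) and rose by 1.122 ± 0.09 with RA (adjusted p = 1.25e-16). The receptor kinase Axl and the membrane repair protein Myof fell at T14, with terms of -1.48 ± 0.11 and -0.92 ± 0.10, and were not called for RA, at -0.01 ± 0.09 and -0.22 ± 0.08. Amotl2 was likewise called lower at T14 and not called for RA, and Ankrd1 was, like Gadd45a, called higher at T14.

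Of 22 other regulators in the Hippo pathway, a list that holds the kinases Stk3, Stk4 and Lats1, their activators and inhibitors and the angiomotins Amot and Amotl1, 19 were in the table (Wwc1, Wtip and Dchs1 were not). At T14 4 of the 19 fell and none rose, against 8.85% of all genes called lower and 8.47% called higher, with a median of -0.30 against 0.05 over all genes. At T7 3 fell and none rose, against 4.44% called lower and 4.29% called higher, with a median of -0.27, and with RA 3 rose and 1 fell, against 6.39% of all genes called and 3.33% called higher, with a median of 0.24. Ajuba, a LIM protein that restrains LATS kinases, fell by 1.499 ± 0.14 at T14 (adjusted p = 2.03e-13). Wwc2, of the KIBRA family of LATS activators, fell by 1.45 ± 0.14 at T14 (adjusted p = 2.54e-13) and rose by 0.55 ± 0.11 with RA (adjusted p = 6.87e-05). Amotl1, the paralog of Amotl2, rose by 1.34 ± 0.15 with RA (adjusted p = 1.04e-09), from 68.2 ± 3.81 to 146 ± 6.43 CPM at day 7 and from 57.5 ± 17.9 to 180.3 ± 56.6 at day 14. Frmd6, a FERM protein of the Expanded family, had a T14 term of -0.85 ± 0.13 and an RA term of -0.54 ± 0.10 (adjusted p = 4.14e-05). Of 4 other TEAD cofactors 2 were in the table, and neither was called in any of the 3 terms. Their RA terms were -0.69 ± 0.19 for Vgll4, a repressor of TEAD that competes with YAP (adjusted p = 0.00457), and 0.33 ± 0.15 for Wbp2, a YAP-binding co-activator (adjusted p = 0.148).

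**Figure D5:**
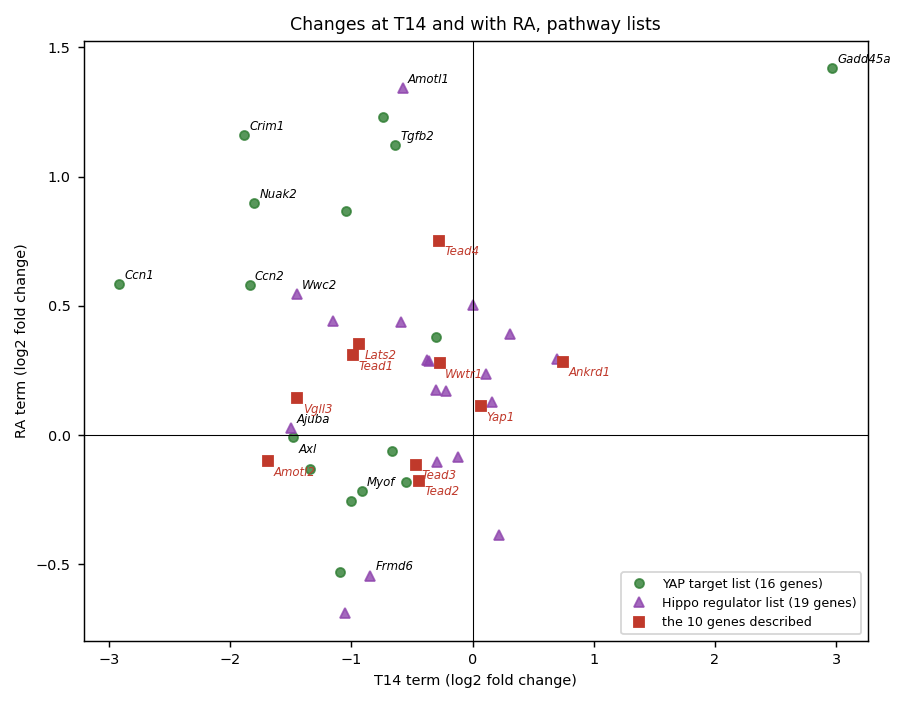
Log2 fold change for T14 (x axis) against that for RA (y axis), both from the additive model, of the 10 genes (squares), 16 YAP targets (circles) and 19 Hippo regulators (triangles). Most YAP targets lie left of 0, and Gadd45a at 2.97 and 1.42 stands apart at the upper right.

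Across the 15 libraries the log2 levels of Amotl2 and Vgll3 had a Pearson r of 0.88, and those of Ankrd1 and Amotl2 one of -0.90. The gene closest in pattern to Ankrd1 among 6389 genes with a mean of at least 20 counts was Tmem38a, which encodes a cation channel of the sarcoplasmic reticulum (r = 0.98), followed by B2m and Fth1. Amotl2 was closest to Uhrf1, a factor that maintains DNA methylation in dividing cells, Ltbp2 and AABR07039210.1 (r = 0.98 for each), Tead1 to Tns1, a focal adhesion protein, Fat1 and Fndc3b (r from 0.92 to 0.95), and Vgll3 to Cited2, Cdh15 and Axl (r from 0.95 to 0.96). Tead3 was closest to Tcf3, Id3 and Actg2 (r from 0.94 to 0.95), and Tead4 to Ywhag, Aplp2 and Nectin2 (r = 0.90 for each). Yap1 was closest to Immt, a mitochondrial inner membrane protein, Rrad and Cacna1c (r from 0.88 to 0.91), and Wwtr1 to Xpo4, Flnc and Lmo7 (r from 0.81 to 0.84). Tead2 was closest to Ddx39a, Csrp2 and Rac1 (r from 0.87 to 0.88), and Lats2 to Nbas, Mtmr4 and Fat1 (r from 0.90 to 0.91). These correlations describe 15 libraries that share 5 groups, culture times and depths, and no test was made of them.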

How the data were processed

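RNA of 15 H9c2 cultures in 5 groups of 3, named as biological replicates by the authors, was sequenced as stranded mRNA libraries on a MiSeq with 2 × 75 base reads. The authors trimmed the reads, used HISAT2 for mapping and featureCounts for counting, on the Galaxy platform, and deposited raw counts, a value for each gene in each library, of those 11574 genes whose counts summed to over 20 (smallest sum 21). The submitters' processing notes name the build Rnor_6.0. Annotation release, strand setting and tool versions are not given in the sources used here. The authors' length column was used only for levels per kilobase.

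Groups came from the sample titles. Library totals ranged from 508397 to 1030820 counts, which limits precision for genes of few counts. Counts were analysed with edgeR 4.0.16 in R 4.3.3 (TMM, robust quasi-likelihood F test, common dispersion 0.00962), with the additive T7, T14 and RA model of the study and with 5 group means. P-values were adjusted by Benjamini-Hochberg over all genes and called under 0.001, or under 0.05 for the difference between days. SEs are on the log2 scale. The scripts were tested on simulated counts. No 2 replicate libraries agreed within sampling noise (smallest chi-square 1.07 per gene, p = 2.31e-07).

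Alternatives were relative log expression factors, library size only, filterByExpr, DESeq2 1.42.0, limma 3.58.1 (voom and trend), a threshold of 0.05 (0.001 for the difference), a replicate block, each library left out and, added after seeing the data, the RA term without T0. The 10 genes and the lists were chosen with earlier results of these data known. Named besides the 10 were the 12 list genes with the lowest p among those called in a term, and the 3 genes closest in log2 CPM (prior count 2, mean of at least 20 counts). Vgll4, Wbp2 and those of the closing observations were chosen after their values were seen. Promoter windows are those of RefSeq on GRCr8.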

Additional observations from a re-analysis of the deposited data

Results flagged for a closer look

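Among the listed YAP targets the RA change differed between the days in Ccn2, where the change at day 14 minus that at day 7 was -0.576 on the log2 scale (adjusted p = 0.0221). Ccn2 measured 480.0 ± 65.3 CPM without and 875 ± 37.5 with RA at day 7, and 540.5 ± 22.6 without and 659 ± 54.9 with RA at day 14. Ccdc80, which encodes a secreted matrix protein, differed the other way, by 0.9046 (adjusted p = 7e-07), with 1809 ± 81.2 and 1729 ± 30.1 CPM at day 7 and 999 ± 35.1 and 1786 ± 121 at day 14. In Axl all RA libraries lay above those without RA at day 7 and below them at day 14, and the difference of -0.472 did not pass the test (adjusted p = 0.178).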

How the results depend on the processing

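Of 1990 recomputed fold changes of the 10 genes, 1918 kept their sign and their side of the threshold, 26 lost and 19 gained a call, and 27 changed sign, all of the last without a call. At an adjusted p of 0.05 the count of the 10 genes called became 5 for T7 (23.1% of all genes), 3 for RA (14.7%), 5 for RA at day 7 (7.41%), 1 for RA at day 14 (11.2%) and 6 for the first week without RA (22.6%). That of the 19 Hippo regulators became 6 for T7 (1 higher, 5 lower), 8 for T14 (1 higher, 7 lower, 35.4% of all genes called) and 7 for RA (4 higher, 3 lower). The RA term called 2 of the 10 with limma-voom and, in a fit chosen after seeing the data, 2 without the T0 group. In the second week without RA DESeq2 and limma-trend called 1. The difference between days called 1 with DESeq2 and 1 with limma-voom. Leaving out 1 library gave 1 to 4 called genes for T7 (1 without T0 replicate 1), 1 to 2 for RA (2 without T14+RA replicate 3), 0 to 2 for RA at day 7 (0 without T7+RA replicate 1), 1 to 2 for the second week without RA and 0 to 1 for the difference (1 without T0 replicate 2).

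The replicate numbers were not taken to pair the libraries, since no label ties a number to a shared batch and not every same-numbered pair correlated above 0.1. Same-numbered libraries had a mean correlation of deviations of 0.0541 (30 pairs, -0.0514 to 0.265) against -0.027 for different numbers, and 10 of 15 libraries, not all, were closest to their own number, a hint from the data and not from the design. The replicate block gave 2 called genes for RA at day 7, 1 for the difference between days and 4 for the first week without RA, where Ankrd1 was added as higher.

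Signs turned in uncalled values. Axl for RA became 0.007612 with limma-voom and ranged from -0.04886 to 0.07546 with 1 library left out. Ajuba for RA became -0.001153 with limma-trend and ranged from -0.05721 to 0.101. For RA at day 7 the ranges were -0.1691 to 0.01416 for Yap1, -0.2619 to 0.03202 for Tead2 and -0.132 to 0.05406 for Amotl2, and for RA at day 14 -0.2624 to 0.00512 for Wwtr1 and -0.127 to 0.1787 for Tead1. In the second week without RA they were -0.03093 to 0.2508 for Tead1 and -0.1618 to 0.0122 for Tead2, and in the second week with RA -0.01489 to 0.2105 for Tead4. For the difference between days Tead3 ranged from -0.05393 to 0.08358 and Tead4 from -0.1361 to 0.1025. By library size only it was 0.01168, and by limma-voom 0.003479 (Tead4, RA difference between days). The causes were not tested. Counts per library of Wwtr1, Tead2 and Tead4 did not exceed 104, which limits the precision of their values, and whether depth had a part in the turned signs was not tested.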

Other observations

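Fat1, a giant protocadherin that signals to the Hippo kinases, was among the 3 genes closest in pattern to both Tead1 (r = 0.92) and Lats2 (r = 0.90) over the 15 libraries. Its T14 term was -1.15 ± 0.24 (adjusted p = 0.002) and its change with RA at day 7 was 0.80 ± 0.21 (adjusted p = 0.043), and neither passed 0.001. Ptpn14, a phosphatase that binds YAP, was the 1 listed YAP target called lower with RA at day 14. It fell by 0.99 ± 0.17 on that day (adjusted p = 3.89e-06), and at day 7 its change was -0.17 ± 0.14. The difference between the days of -0.81 ± 0.22 narrowly missed the threshold (adjusted p = 0.052). F3, tissue factor, rose with RA at day 14 by 1.40 ± 0.22 (adjusted p = 4.12e-07), and at day 7 its change was 0.42 ± 0.19 (adjusted p = 0.231), with a difference between the days of 0.99 ± 0.29 that missed the threshold (adjusted p = 0.108).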
